A study of Mus musculus with 32 samples.

Results

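Germ cells of mice of 18 dpp (days postpartum) were compared with those of mice of 8 dpp, the last and the earliest age of a time course through the first wave of spermatogenesis. The members are the 5 mice of 18 dpp and the 3 mice of 8 dpp, 8 of the 32 samples of the series, chosen by age alone from the labels, and every gene of the juvenile gene table was compared. The authors had dropped further libraries of 8 dpp that agreed poorly with the others of that age. The 3 mice kept were thus selected in part for agreement, and what this does to the SD, the calls and the overlap of the ages was not tested. That table lists 20368 of the 85539 genes of the transcript table, those with at least 3 TPM (a transcript's share of its library, scaled alike in all libraries) in a juvenile mouse, and 19072 of them had that level in 1 or more of these 8 mice. All 8 are male C57BL/6J mice with no treatment or allele named, and each gave its own library of polyA RNA. The germ cells came from seminiferous tubules that were digested with an enzyme and washed to remove interstitial cells, and no sorting step is named for the juvenile mice. The other samples are 20 juvenile mice of 10 to 16 dpp and 4 adult samples of pachytene and diplotene spermatocytes, each enriched by sedimentation from 6 C57BL/6J males of 9 weeks. The labels name no batch or pool. Index sequences of the libraries of 8 to 12 dpp come again in those of 14 to 18 dpp, but none is shared between 8 and 18 dpp. Whether these ages were pooled together is therefore not known, and if they were not, pool and age cannot be told apart.

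Spermatogenesis starts in all tubules of a young mouse at about the same time, so the most advanced germ cell of the testis gives the testis its stage. Spermatogonia divide by mitosis, differentiate under retinoic acid and enter meiosis as spermatocytes, which pair their chromosomes along the synaptonemal complex, repair programmed DNA breaks as crossovers and silence the X and Y chromosomes during pachynema. Spermatocytes also transcribe many genes whose proteins are used only later, in the round and elongating spermatids that build the acrosome and the flagellum.

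Marker genes were read against the labels first. Levels are in TPM and are given as mean ± SD over 3 mice at 8 dpp and over 5 mice at 18 dpp. Of the 4 proteins that the study stained to stage its cells, Stra8, which is needed for entry into meiosis, fell from 209 ± 39.0 TPM to 86.7 ± 14.0 TPM (log2 fold change -1.25, adjusted p = 2.35e-04). Sycp3, a lateral element protein of the synaptonemal complex, rose from 136 ± 28.2 TPM to 502 ± 42.7 TPM (log2 fold change 1.90, adjusted p = 1.26e-05). H2afx, the histone that is phosphorylated at DNA breaks and on the silenced sex chromosomes, rose from 58.1 ± 2.12 TPM to 126 ± 20.4 TPM (log2 fold change 1.09, adjusted p = 1.60e-04). The gene of the testis histone H1t, Hist1h1t, was not in the gene table, and its transcripts summed to at most 0.91 TPM in these mice. The messages of many histone genes have no polyA tail, so that a polyA library does not show whether cells with this protein were present, and the study did find them by staining at the older ages. Of 16 spermatid genes, 14 were below the table, with at most 2.73 TPM in any of the 8 mice, and H1fnt was listed at 0 in all of them. Oaz3 rose from 0.357 ± 0.134 TPM to 2.29 ± 0.922 TPM (log2 fold change 1.23) and Smcp was not called. The defining markers of haploid cells were thus at or near 0 at either age, while Stra8, Sycp3 and H2afx were present at both.

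Mice 4 and 5 of 18 dpp stood apart from mice 1 to 3 of that age. The genes that rose at least 2-fold together made up, of a library's transcripts, 3.91%, 3.64% and 3.93% in mice 1 to 3 of 8 dpp and 25.4%, 24.9%, 23.9%, 15.4% and 14.5% in mice 1 to 5 of 18 dpp. Mice 4 and 5 therefore lay between the 8 dpp mice and the other mice of 18 dpp. Markers of somatic cells split the same mice. Sertoli cell markers (23 genes, of which Clu has the highest mean over the 8 mice) summed to 16830.0, 17866 and 15982 TPM in mice 1 to 3 of 8 dpp and 7885, 7896, 8000.3, 10491 and 10436 TPM in mice 1 to 5 of 18 dpp. Peritubular markers (7 genes, led by Acta2) summed to 1183, 1249 and 1134 TPM in mice 1 to 3 of 8 dpp and 646, 579, 609, 1099 and 1119 TPM in mice 1 to 5 of 18 dpp, so that mice 4 and 5 were close to the 8 dpp mice. Leydig cell markers (8 genes, led by Insl3) summed to 251, 260.0 and 239 TPM in mice 1 to 3 of 8 dpp and 216, 219.8, 211, 559.6 and 398 TPM in mice 1 to 5 of 18 dpp, highest in mice 4 and 5. Their part in the results was not tested. Without mice 4 and 5, 3899 genes in place of 3565 were higher and 2798 in place of 2064 were lower with a 2-fold change, and 5577 of the 5629 genes called with a 2-fold change in all 8 mice were called in the same direction.

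**Figure D1:**
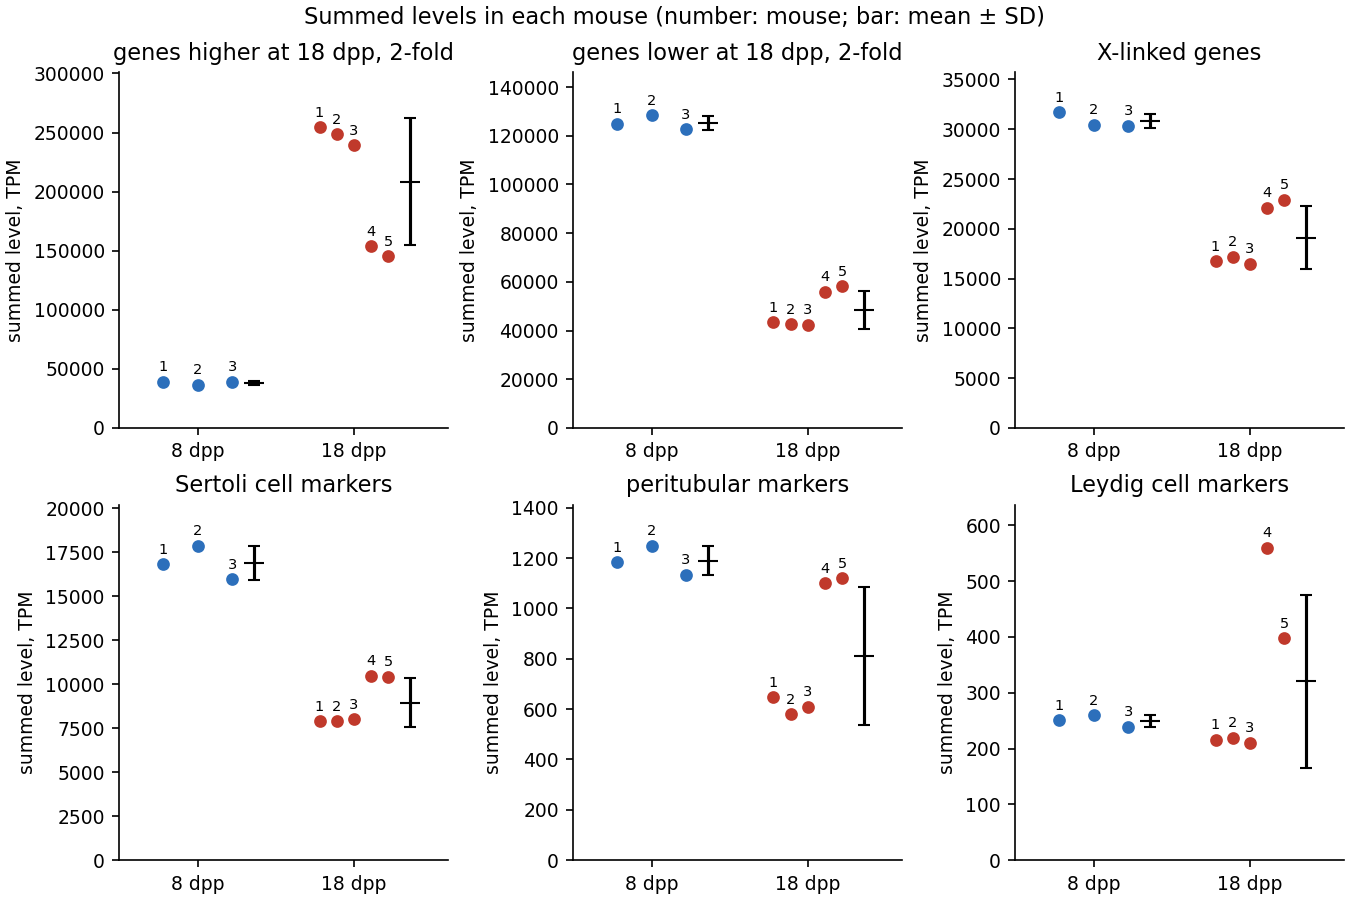
Summed levels, in TPM, of 6 sets of genes in each mouse, with 1 point for each mouse, its number above it, and the mean ± SD of each age beside the points. At 18 dpp, mice 4 and 5 are lower than mice 1 to 3 for the genes that rose and higher for the other 5 sets, and in the Leydig panel they are also above all 3 mice of 8 dpp.

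From 8 to 18 dpp, gene levels rose by large steps and fell by small ones. Levels were compared as log2(TPM + 1) with limma, and a gene was called at an adjusted p-value under 0.05. Of 20368 genes, 12726 were called (62.5%), 6017 higher at 18 dpp (29.5%) and 6709 lower (32.9%). With a change of at least 2-fold as well, 3565 were higher (17.5%) and 2064 lower (10.1%). The 5 mice of 18 dpp and the 3 of 8 dpp did not overlap in 12428 genes (61%), among them 5485 of the 5629 called with a 2-fold change. The shares of 29.5% higher and 32.9% lower are the background for the gene lists below. Rises of at least 4-fold were found for 1783 genes and falls of that size for 189. At 16-fold the counts were 545 and 3, at 64-fold 113 and 0, and 11 genes rose at least 256-fold.

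The genes of the largest rises started from almost nothing. Of the 545 genes that rose at least 16-fold, 403 had under 1 TPM at 8 dpp, and the median went from 0.237 to 58.1 TPM. The 189 genes that fell at least 4-fold went from a median of 22.4 to 3.11 TPM. Fold changes are of TPM + 1 and so understate the change of genes with low values. The median log2 fold change of all genes was -0.09. It was 0.03 with median-of-ratios factors and -0.26 with quantile normalization, and quantile normalization turned the split of genes with a 2-fold change from 3565 higher and 2064 lower to 2988 higher and 3241 lower. A small change can therefore turn with the scaling. In bulk RNA, fewer cells of a type and less RNA per cell cannot be told apart. Since TPM is a share, the depth of the libraries is unknown. No strand-specific counting is stated, so that reads of overlapping genes on opposite strands may have been shared, and reads of near-identical gene copies may have been split between them.

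**Figure D2:**
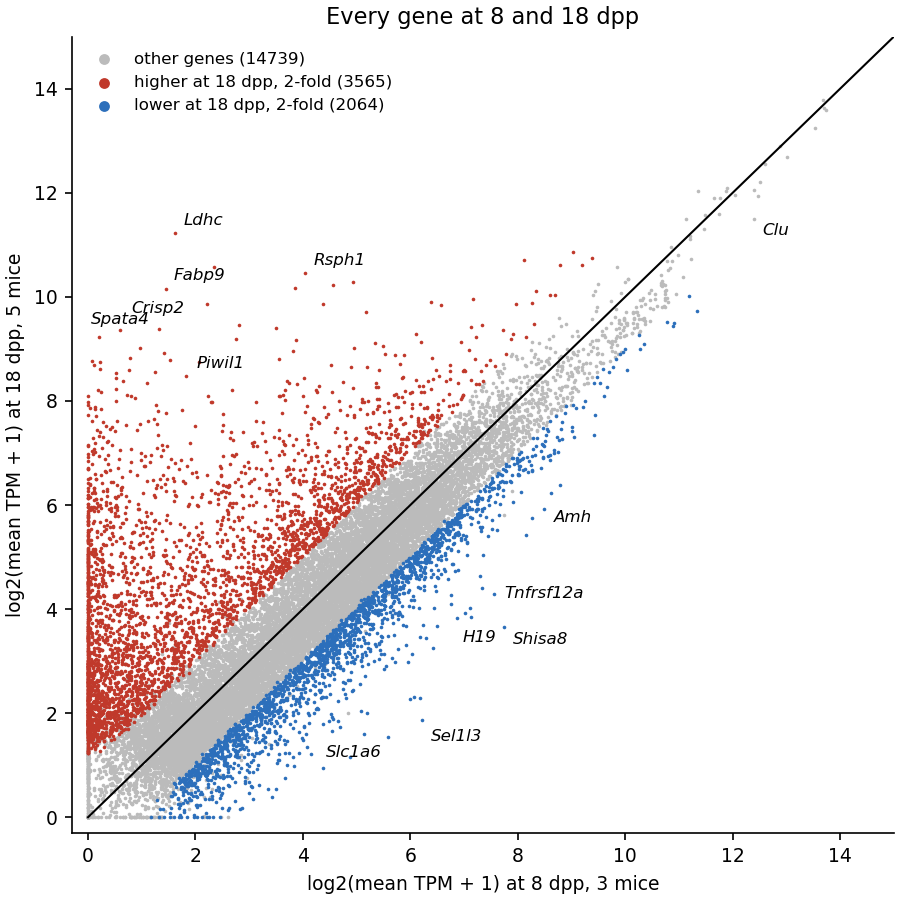
Every gene by its level at 8 dpp (3 mice) and at 18 dpp (5 mice), as log2 of the mean TPM + 1, with genes called with a 2-fold change in colour and the line of equal levels in black. The 3565 genes higher at 18 dpp fill the upper left, many of them from near 0, while the 2064 lower genes lie in a narrow band under the line.

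Ldhc, the germ cell form of lactate dehydrogenase, at chromosome 7 of GRCm38 from 46861203 to 46878142, had 1.87, 0.770 and 3.55 TPM in mice 1 to 3 of 8 dpp and 2917, 3038, 2891, 1589 and 1543 TPM in mice 1 to 5 of 18 dpp. All 5 mice of 18 dpp were far above all 3 of 8 dpp, and mice 4 and 5 were the lowest of the 5. Its mean rose from 2.06 ± 1.40 TPM to 2396 ± 759 TPM (log2 fold change 9.65, adjusted p = 8.27e-07), the largest rise of all genes that pass the rule for named genes, and at 18 dpp it was the most abundant of 42 genes of energy metabolism. Spata4, at chromosome 8 of GRCm38 from 54600781 to 54610098 and overlapped on the opposite strand by 5330439A09Rik, rose from 0.150 ± 0.260 TPM to 601 ± 219 TPM (log2 fold change 8.97, adjusted p = 8.24e-07). Fabp9, a fatty acid binding protein of the sperm head, at chromosome 3 of GRCm38 from 10193621 to 10197283 and overlapped by Gm37389, rose from 1.72 ± 1.40 TPM to 1140.5 ± 352 TPM (log2 fold change 8.77, adjusted p = 9.69e-07). Crisp2, a cysteine-rich secretory protein of the acrosome and tail, at chromosome 17 of GRCm38 from 40764020 to 40807003, had 0.640, 0 and 0.920 TPM in mice 1 to 3 of 8 dpp and 919, 828, 819, 382 and 339 TPM in mice 1 to 5 of 18 dpp. Again mice 4 and 5 had the lowest values of their age and no mouse of 8 dpp came near them, and the log2 fold change was 8.69 (adjusted p = 1.66e-06).

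The other 8 of the 12 largest rises had means between 271 and 1529 TPM at 18 dpp. Dkkl1, an acrosomal protein, rose from 1.49 ± 0.546 TPM to 669.6 ± 245 TPM (log2 fold change 8.00). Spink2, a protease inhibitor of the acrosome, rose from 0.727 ± 0.927 TPM to 452 ± 186 TPM (log2 fold change 8.05). Hrasls5, a phospholipid acyltransferase, rose from 0.160 ± 0.139 TPM to 391 ± 180.3 TPM (log2 fold change 8.26). A pair of neighbouring genes of the chemokine-like factor family on chromosome 8 rose together, Cmtm2a from 0.0733 ± 0.127 TPM to 409.9 ± 175 TPM (log2 fold change 8.46) and Cmtm2b from 0 TPM in every mouse to 271 ± 129 TPM. They resemble each other in sequence, so how reads were shared between them is uncertain. Gm3448, at chromosome 17 of GRCm38 from 14995787 to 15041537, overlaps Tcte3 on the same strand and Ermard and Gm3435 on the opposite strand, so its rise from 4.11 to 1529 TPM is uncertain. Mroh4 rose from 0.163 ± 0.170 TPM to 431 ± 130.5 TPM (log2 fold change 8.49), and 4922502D21Rik rose from 0.05 ± 0.0866 TPM to 435 ± 164 TPM (log2 fold change 8.61). In all 12 genes the adult spermatocytes had more than the 18 dpp mice, up to 6852 ± 139.6 TPM for Ldhc (SD, n = 4).

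Among the falls, Sel1l3, at chromosome 5 of GRCm38 from 53107083 to 53213927, had 67.2, 93.0 and 60.8 TPM in mice 1 to 3 of 8 dpp and 2.45, 2.70, 2.02, 2.68 and 3.39 TPM in mice 1 to 5 of 18 dpp. The 5 mice of 18 dpp were close to each other and all below the 3 of 8 dpp, and Sel1l3 fell from 73.7 ± 17.0 TPM to 2.65 ± 0.497 TPM (log2 fold change -4.34, adjusted p = 9.69e-07). Shisa8, a membrane protein, at chromosome 15 of GRCm38 from 82206168 to 82212815, had 189.7, 243 and 209 TPM in mice 1 to 3 of 8 dpp and 10.4, 8.05, 8.30, 16.6 and 14.5 TPM in mice 1 to 5 of 18 dpp. Mice 4 and 5 of 18 dpp were the highest of their age, without reaching the 8 dpp mice, and the log2 fold change was -4.14 (adjusted p = 4.15e-06). Slc1a6, a glutamate transporter, fell from 47.0 ± 2.39 TPM to 1.93 ± 0.848 TPM (log2 fold change -4.08, adjusted p = 4.30e-06). Epha2, an ephrin receptor kinase, fell from 65.8 ± 5.33 TPM to 3.98 ± 1.69 TPM (log2 fold change -3.81). Lpcat2, an enzyme of phospholipid remodelling, fell from 28.5 ± 5.40 TPM to 1.22 ± 0.430 TPM (log2 fold change -3.73), and overlaps Capns2. Lpl, the lipoprotein lipase that frees fatty acids for uptake, at chromosome 8 of GRCm38 from 68880491 to 68907448, had 63.3, 65.6 and 59.4 TPM in mice 1 to 3 of 8 dpp and 3.96, 3.91, 2.89, 3.71 and 4.72 TPM in mice 1 to 5 of 18 dpp. The ages were far apart and the mice of each age close together, with a log2 fold change of -3.73 (adjusted p = 7.52e-07).

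An imprinted RNA and an insulin gene were among the remaining falls. H19, an imprinted noncoding RNA that hosts Mir675, at chromosome 7 of GRCm38 from 142575529 to 142578143, fell from 139 ± 6.32 TPM to 13.4 ± 4.70 TPM (log2 fold change -3.33, adjusted p = 1.18e-05). Ins2, a mouse insulin gene, fell from 19.8 ± 1.91 TPM to 0.924 ± 0.873 TPM (log2 fold change -3.58). Lfng, a glycosyltransferase that modifies Notch receptors, fell from 34.1 ± 1.96 TPM to 2.05 ± 0.761 TPM (log2 fold change -3.56). Tnfrsf12a, the receptor of the cytokine TWEAK, fell from 187 ± 1.51 TPM to 18.6 ± 5.79 TPM (log2 fold change -3.31). Gm53 fell from 35.6 ± 0.779 TPM to 3.01 ± 1.08 TPM (log2 fold change -3.23) and Gm6187 fell from 22.7 ± 4.25 TPM to 2.72 ± 3.90 TPM (log2 fold change -3.38). All 12 of these genes were lower still in the adult spermatocytes, with 0.105 ± 0.210 TPM for Shisa8 and 0.960 ± 0.871 TPM for H19 (SD, n = 4).

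Promoters of genes that rose or fell together are shown with the letters of 4 motifs in capitals, searched on both strands: CAGTTG (MYB), GTTGCCA (RFX), TGACGTCA (CRE) and GGCGGGA (E2F). The sequences are from RefSeq on GRCm38.p6, 250 bases before to 50 after a transcript start, 5′ to 3′ on the gene's strand. Of all 32851 promoters of that length, 13.7% hold the MYB letters, 4.38% the RFX letters, 1.79% the CRE letters and 11.3% the E2F letters. These promoters belong to 27025 genes, of which 11128 were tested here, so the shares are no background for the genes tested. The table held a promoter for 326 of the 457 Ensembl genes that rose at least 16-fold (71.3%), under the 80% needed, so a share over these genes is void and none is given. The promoters are Piwil1 at chr5:128735996-128736295 (plus strand), Spata4 at chr8:54600531-54600830 (plus strand), Cmtm2a at chr8:104293132-104293431 (minus strand), Cmtm2b at chr8:104321977-104322276 (plus strand), Zmynd10 at chr9:107547054-107547353 (plus strand) and Shisa8 at chr15:82212766-82213065 (minus strand). They were chosen after the values were seen, 5 for large rises with a match and Shisa8 as a gene that fell. Of the 12 largest rises, 8 have a promoter in the table, and 5 of these (Ldhc, Crisp2, Dkkl1, Spink2 and Gm3448) hold none of the 4 motifs. Of the 12 largest falls, 6 have a promoter there and 5 of these hold a motif. Both counts also rest on under 80% of their genes, which were picked by size of change. They are a description and do not set rises against falls.
Piwil1: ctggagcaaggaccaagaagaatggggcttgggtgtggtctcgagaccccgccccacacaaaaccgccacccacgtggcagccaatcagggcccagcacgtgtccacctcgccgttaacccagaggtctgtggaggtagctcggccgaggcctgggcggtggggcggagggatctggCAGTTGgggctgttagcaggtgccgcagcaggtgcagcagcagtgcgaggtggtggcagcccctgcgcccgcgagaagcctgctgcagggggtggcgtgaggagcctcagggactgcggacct
Spata4: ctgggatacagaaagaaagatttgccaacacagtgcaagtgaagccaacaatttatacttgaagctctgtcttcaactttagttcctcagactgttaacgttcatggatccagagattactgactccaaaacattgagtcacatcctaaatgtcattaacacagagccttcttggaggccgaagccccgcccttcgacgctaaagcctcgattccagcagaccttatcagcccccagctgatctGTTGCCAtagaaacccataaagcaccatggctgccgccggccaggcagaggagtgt
Cmtm2a: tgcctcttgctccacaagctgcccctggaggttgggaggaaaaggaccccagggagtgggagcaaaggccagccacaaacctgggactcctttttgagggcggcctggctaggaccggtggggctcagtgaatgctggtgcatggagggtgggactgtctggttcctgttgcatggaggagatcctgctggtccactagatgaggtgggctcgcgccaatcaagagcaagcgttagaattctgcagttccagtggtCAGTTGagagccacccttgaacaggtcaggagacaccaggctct
Cmtm2b: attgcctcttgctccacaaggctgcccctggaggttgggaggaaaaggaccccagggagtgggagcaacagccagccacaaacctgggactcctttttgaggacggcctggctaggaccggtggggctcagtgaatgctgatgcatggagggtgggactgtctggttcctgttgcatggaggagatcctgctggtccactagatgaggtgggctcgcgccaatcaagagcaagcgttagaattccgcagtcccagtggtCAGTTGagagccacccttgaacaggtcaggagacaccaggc
Zmynd10: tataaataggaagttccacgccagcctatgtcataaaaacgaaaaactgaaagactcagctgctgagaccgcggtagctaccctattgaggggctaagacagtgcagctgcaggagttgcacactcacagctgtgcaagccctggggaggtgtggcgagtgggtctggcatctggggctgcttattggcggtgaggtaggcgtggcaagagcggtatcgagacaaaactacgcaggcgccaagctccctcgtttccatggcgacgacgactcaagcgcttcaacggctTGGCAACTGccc
Shisa8: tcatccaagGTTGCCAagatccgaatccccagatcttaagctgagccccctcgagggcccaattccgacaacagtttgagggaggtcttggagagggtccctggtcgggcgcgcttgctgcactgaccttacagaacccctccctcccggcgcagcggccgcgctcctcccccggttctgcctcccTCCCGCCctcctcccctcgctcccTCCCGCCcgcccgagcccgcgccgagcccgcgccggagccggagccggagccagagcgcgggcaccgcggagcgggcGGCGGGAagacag

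Piwil1 and both Cmtm2 promoters hold the MYB letters, Spata4 the RFX letters, and Zmynd10 both of them, overlapping, near its transcript start. The Piwil1 promoter belongs to a transcript that starts inside the span of the gene. Shisa8, which fell, holds the RFX letters far upstream and the E2F letters 3 times. The MYB letters are also in promoters of Tet3, Lfng and Itgb8, which fell, and Tet3 has the RFX letters as well. The genes of the factors themselves were measured too. Of 45 transcription regulators of spermatocytes, 23 rose (51.1%), 18 fell (40%) and 4 did not pass the test (median log2 fold change 0.24, and 0.13 with the 5 members below the gene table added from transcript sums). Mybl1 (A-MYB), which drives many genes at pachynema, and Rfx2 and Crem, which drive genes of spermatids, were among those that rose. Gtf2a1l, a germ cell form of the general factor TFIIA, rose from 0.0467 ± 0.0808 TPM to 109.6 ± 48.5 TPM (log2 fold change 6.59, adjusted p = 4.59e-06). Kctd19, a partner of Zfp541, rose from 1.46 ± 0.0757 TPM to 224 ± 60.7 TPM (log2 fold change 6.47, adjusted p = 6.74e-07) and the heat shock factor gene Hsf5 rose from 1.41 ± 0.217 TPM to 79.0 ± 24.0 TPM (log2 fold change 5.00). E2f1, E2f2, E2f3, E2f5 and E2f6 fell, and E2f4 and E2f8 rose. Taf7l, an X-linked member and the most abundant of the list (by the mean of the 8 mice, here and for other lists), fell from 209 ± 36.4 TPM to 137 ± 22.8 TPM (log2 fold change -0.60). Letters in these windows are a description, and binding was not measured.

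Most genes of the sperm tail rose. In the list of flagellum and cilium structure, 70 of 75 genes rose (93.3%), 0 fell and 5 did not pass the test (median log2 fold change 4.01), against a median of -0.09 for all genes. A gene near 0 at 8 dpp is in the table only if it reached 3 TPM later, and 9 further genes of the list were below the table. When these were added from transcript sums, an alternative chosen after seeing the data, 70 of 84 rose, 0 fell and the median was 3.66. The summed level of the 75 genes was 506, 487 and 506 TPM in mice 1 to 3 of 8 dpp and 12811, 12810.0, 11853, 6486 and 6057 TPM in mice 1 to 5 of 18 dpp, again with mice 4 and 5 between the rest of 18 dpp and 8 dpp. Rsph1, a protein of the radial spoke head and the most abundant of the list, had 15.7, 13.8 and 16.9 TPM in mice 1 to 3 of 8 dpp and 1606, 1763, 1666, 1026 and 958 TPM in mice 1 to 5 of 18 dpp. The ages were far apart, with mice 4 and 5 the lowest at 18 dpp, and the log2 fold change was 6.37 (adjusted p = 7.52e-07). Zmynd10, which is needed to assemble dynein arms, rose from 0.180 ± 0.197 TPM to 288 ± 86.8 TPM (log2 fold change 7.89, adjusted p = 6.74e-07). Tcp11, a protein of sperm motility, rose from 1.88 ± 0.0961 TPM to 442 ± 181 TPM (log2 fold change 7.15). Odf4, of the outer dense fibres, rose from 0 TPM in every mouse to 140.3 ± 51.2 TPM. No gene of the list fell, by limma or at an unadjusted p under 0.05, and the 5 that were not called are Spag4, Spag6, Efhc2, Cfap77 and Foxj1.

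Every axonemal dynein gene in the table rose, 16 of 16 (median log2 fold change 3.66). With 4 dynein genes from below the table, 16 of 20 rose, 1 (Dnah11) fell and the median was 3.46. Dnah8, a heavy chain of the outer arm and the most abundant, rose from 1.62 ± 0.270 TPM to 133 ± 65.7 TPM (log2 fold change 5.53, adjusted p = 1.01e-05). Dnah17, a heavy chain of the sperm outer arm, rose from 0.410 ± 0.252 TPM to 61.4 ± 32.5 TPM (log2 fold change 5.31) and Dnali1, a light intermediate chain, rose from 0.523 ± 0.222 TPM to 79.5 ± 33.0 TPM (log2 fold change 5.62), and other genes, among them Pgs1 and Gnl2, overlap them on the opposite strand. Of the acrosome and gamete fusion genes, 17 of 19 genes rose (89.5%), 1 fell (5.26%) and 1 did not pass the test (median log2 fold change 4.57), and 24 further genes of the list were below the table. With the 23 of them that have transcript values, 17 of 42 rose, 0 fell (Spaca6 was not called in that fit) and the median was 0.48, so the large median holds for the members in the table and not for the list. Spata16, a Golgi protein needed to form the acrosome, rose from 0.0967 ± 0.167 TPM to 146 ± 76.7 TPM (log2 fold change 6.87). The exceptions were Spaca6, which fell, and Calr3, which was not called. Among ADAM metalloproteases, 7 of 18 genes rose (38.9%), 4 fell (22.2%) and 7 did not pass the test (median log2 fold change -0.07), and the median was 0.05 with median-of-ratios factors, and above 0 without mouse 1 of 8 dpp or mouse 3 of 18 dpp. With 15 ADAM genes from below the table, 7 of 33 rose, 3 fell and the median was 0. Adam5 rose from 0.700 ± 0.262 TPM to 385 ± 156 TPM (log2 fold change 7.73), Adam2 rose to 234 ± 83.7 TPM (log2 fold change 7.66) and Adam3 rose from 0.0967 ± 0.0950 TPM to 230.3 ± 131 TPM (log2 fold change 7.48), genes of sperm surface proteins. Adam10, Adam17, Adam19 and Adam22, which other tissues use as well, fell.

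Most genes of the synaptonemal complex rose, by smaller steps than those of the tail. Of these, 9 of 12 genes rose (75%), 1 fell (8.33%) and 2 did not pass the test (median log2 fold change 1.55). Hormad1, which marks unpaired axes, rose from 58.7 ± 14.4 TPM to 291 ± 22.5 TPM (log2 fold change 2.32, adjusted p = 8.52e-06). Syce1, of the central element, rose from 53.7 ± 11.0 TPM to 269.9 ± 79.4 TPM (log2 fold change 2.27) and its relative Syce1l rose from 3.10 ± 0.367 TPM to 28.9 ± 13.1 TPM (log2 fold change 2.74). Trip13, which removes HORMAD proteins from paired axes, was the member that fell. Of the genes of double-strand breaks and recombination, 20 of 43 genes rose (46.5%), 6 fell (14%) and 17 did not pass the test (median log2 fold change 0.38). Spo11, which makes the breaks, rose from 4.65 ± 1.11 TPM to 51.5 ± 10.0 TPM (log2 fold change 3.21, adjusted p = 4.81e-06). Msh4, which stabilizes crossover intermediates, rose from 1.40 ± 0.372 TPM to 16.4 ± 1.80 TPM (log2 fold change 2.86). Cntd1, which acts late in crossover formation, rose from 7.51 ± 1.72 TPM to 148 ± 15.3 TPM (log2 fold change 4.14) and overlaps Becn1 and Coa3 on the opposite strand. Dmc1, Prdm9 and Mei4 were not called. Tex101, the most abundant member of that list and of the acrosome list, is a surface protein of germ cells and not a recombination gene, and rose from 248 ± 51.7 TPM to 925 ± 87.2 TPM (log2 fold change 1.91). Of these genes, Hormad1, Msh4, Sycp3 and Tex101 had less in adult spermatocytes than at 18 dpp, Tex101 with 277 ± 46.8 TPM and Hormad1 with 189 ± 18.0 TPM (SD, n = 4).

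Of 18 genes of cohesin and its regulators, 4 rose (22.2%), 8 fell (44.4%) and 6 did not pass the test (median log2 fold change -0.30). The median was -0.16 with median-of-ratios factors and -0.39 with quantile normalization. Stag3, a meiotic subunit, rose from 124 ± 11.9 TPM to 269 ± 44.0 TPM (log2 fold change 1.10), Sgo2a, which protects centromeric cohesin, rose from 13 ± 1.81 TPM to 35.2 ± 6.58 TPM (log2 fold change 1.36), and Smc1b was higher as well. The mitotic kleisin Rad21 fell from 263 ± 12.0 TPM to 107 ± 11.1 TPM (log2 fold change -1.29), and Smc1a, Stag1 and Stag2 fell with it. The meiotic kleisins Rec8 and Rad21l were not called. Of 16 genes of histone variants and spermatid chromatin, 5 rose (31.2%), 6 fell (37.5%) and 5 did not pass the test (median log2 fold change -0.08), near the shares of all genes. The median was 0.06 under median-of-ratios factors and 0.05 with the 12 members below the table added. Brdt, a bromodomain protein of the testis, rose from 13.7 ± 2.57 TPM to 153 ± 34.3 TPM (log2 fold change 3.38). The linker histone H1f0 fell from 284 ± 13.9 TPM to 42.2 ± 8.82 TPM (log2 fold change -2.74), and the most abundant gene, H3f3b of histone H3.3, fell from 1545 ± 58.8 TPM to 902 ± 54.7 TPM (log2 fold change -0.78).

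Of 26 genes of PIWI and Tudor proteins, 21 rose (80.8%), 3 fell (11.5%) and 2 did not pass the test (median log2 fold change 1.46). Piwil1, the PIWI protein of pachytene piRNAs, at chromosome 5 of GRCm38 from 128702524 to 128755474 and overlapped on the opposite strand by 4930553I04Rik, had 2.62, 1.96 and 3.06 TPM in mice 1 to 3 of 8 dpp and 401, 375, 397, 314 and 281 TPM in mice 1 to 5 of 18 dpp. Mice 4 and 5 were the lowest at 18 dpp by a small margin, no mouse of 8 dpp came near them, and the log2 fold change was 6.64 (adjusted p = 1.42e-07). Tdrd6 rose from 0.107 ± 0.0473 TPM to 208 ± 103 TPM (log2 fold change 7.38) and Tdrd5 rose from 13.9 ± 1.24 TPM to 126 ± 11.5 TPM (log2 fold change 3.09), Tudor proteins of the germ granules. Mael, the most abundant, rose from 161 ± 15.3 TPM to 702 ± 174 TPM (log2 fold change 2.08). Piwil4, the PIWI protein of fetal germ cells and spermatogonia, Pnldc1 and Tex19.1 fell. Of the 76 piRNA precursor genes in the table, 62 rose (60 of them at least 2-fold), 4 fell and 10 were not called (median log2 fold change 2.21). Another 138 were below the table. With these added from transcript sums, 88 of 214 rose (41.1%), 19 fell (8.88%) and 107 were not called, and the median was 0.17, so the large median holds for the precursors in the table. Those 76 summed to 57.3, 60.0 and 66.0 TPM in mice 1 to 3 of 8 dpp and 863, 784, 766, 565 and 534 TPM in mice 1 to 5 of 18 dpp. The ages did not overlap (two-sided exact permutation test, p = 0.0357, the smallest that 56 arrangements allow, and 0.0595 adjusted over 5 such values). A precursor near 0 at 8 dpp is among the 76 only if it reached 3 TPM in an older juvenile mouse. The filter thus favoured a higher sum at 18 dpp, so this test decides nothing about the precursors. The precursor pi-17-qC-935 rose from 0.123 ± 0.214 TPM to 173 ± 29.0 TPM (log2 fold change 7.28, adjusted p = 1.42e-07). The largest falls were those of pi-ENSMUSG00000048732 from 7.15 ± 0.207 TPM to 3.67 ± 0.132 TPM (log2 fold change -0.80) and pi-ENSMUSG00000032119 from 6.77 ± 0.229 TPM to 3.64 ± 0.174 TPM (log2 fold change -0.74).

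Of 40 germ cell RNA-binding and polyadenylation factors, which store or extend messages, 24 rose (60%), 10 fell (25%) and 6 did not pass the test (median log2 fold change 0.80). With the members below the table added, 22 of 43 rose, 9 fell and the median was 0.52. Ybx2, which binds stored messages in spermatocytes and spermatids, rose from 29.4 ± 4.81 TPM to 1244 ± 296 TPM (log2 fold change 5.33, adjusted p = 9.68e-07). Pabpc1, a poly-A binding protein and the most abundant of the list, rose from 441 ± 8.06 TPM to 1565 ± 261 TPM (log2 fold change 1.81). Its testis copies rose from near 0, Pabpc2 from 0.0300 ± 0.0520 TPM to 233 ± 126 TPM (log2 fold change 7.61) and Pabpc6 from 0.367 ± 0.140 TPM to 179.9 ± 98.1 TPM (log2 fold change 6.83), with reads that may be shared among them. Lin28a, Igf2bp1, Elavl2 and Pabpc4 fell.

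Spermatogonial genes fell, with exceptions in each list. Of the genes of undifferentiated spermatogonia, 1 of 23 genes rose (4.35%), 17 fell (73.9%) and 5 did not pass the test (median log2 fold change -1.13). Ret, a receptor of the niche factor GDNF, fell from 13.1 ± 0.658 TPM to 4.02 ± 0.574 TPM (log2 fold change -1.49) and Shisa6 fell from 10.4 ± 0.606 TPM to 2.06 ± 1.19 TPM (log2 fold change -1.96). Gfra1, Zbtb16, Etv5 and Neurog3 fell as well. Id4, a marker of stem cells, went the other way, with 12.3, 11.2 and 11.1 TPM in mice 1 to 3 of 8 dpp and 50.7, 49.1, 63.7, 51.9 and 54.2 TPM in mice 1 to 5 of 18 dpp. All 5 mice of 18 dpp were above all 3 of 8 dpp (log2 fold change 2.12, adjusted p = 1.66e-06), and A330033J07Rik and Gm49291 overlap the gene on the opposite strand. Of the genes of differentiating spermatogonia and meiotic entry, 3 of 28 genes rose (10.7%), 17 fell (60.7%) and 8 did not pass the test (median log2 fold change -0.82). Ccnd2, a cyclin of dividing spermatogonia, fell from 86.8 ± 3.36 TPM to 20.8 ± 4.24 TPM (log2 fold change -2.03, adjusted p = 1.40e-05). Aldh1a1, an enzyme of retinoic acid synthesis and the most abundant, fell from 921 ± 47.4 TPM to 542 ± 137 TPM (log2 fold change -0.80). Bulk RNA does not show which cells Aldh1a1 came from, and Sertoli cell markers fell in these mice too. Kit, Sohlh1, Rara and Dnmt3b fell. Dmrtb1, Meioc and Ythdc2 rose, Meioc from 48.1 ± 10.2 TPM to 139 ± 7.94 TPM (log2 fold change 1.53). Dmrtb1 had 53.6, 49.9 and 61.2 TPM in mice 1 to 3 of 8 dpp and 579, 574, 524, 231 and 194 TPM in mice 1 to 5 of 18 dpp, with mice 4 and 5 below the rest of 18 dpp and above 8 dpp (log2 fold change 2.77).

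DNA methylation genes fell with them. Of 16, 3 rose (18.8%), 11 fell (68.8%) and 2 did not pass the test (median log2 fold change -0.99). The oxidases of methylated cytosine Tet3 and Tet2 fell, Tet3 from 48.0 ± 1.31 TPM to 15.4 ± 1.56 TPM (log2 fold change -1.58) and Tet2 from 7.30 ± 0.344 TPM to 2.26 ± 0.387 TPM (log2 fold change -1.35). Gadd45a fell from 74.3 ± 10.9 TPM to 25.3 ± 4.99 TPM (log2 fold change -1.53). Dnmt1, Dnmt3a and Dnmt3b fell, while Uhrf1, Mbd1 and Mbd3 rose, the last, the most abundant, from 101 ± 2.43 TPM to 168 ± 9.98 TPM (log2 fold change 0.72). Of 52 DNA replication genes, 18 rose (34.6%), 21 fell (40.4%) and 13 did not pass the test (median log2 fold change 0.02), near the shares of all genes (29.5% and 32.9%). The median was -0.07 under quantile normalization, -0.11 without mice 4 and 5 of 18 dpp, and below 0 without mouse 2 of 8 dpp, mouse 4 or mouse 5 of 18 dpp. Genes of the MCM helicase fell except Mcm7, and all 4 GINS genes rose, Gins1 from 20.0 ± 2.92 TPM to 52.1 ± 6.89 TPM (log2 fold change 1.33). Tyms, which makes thymidylate, fell from 34.7 ± 3.59 TPM to 15.8 ± 4.87 TPM (log2 fold change -1.13), Orc5 rose from 19.4 ± 2.13 TPM to 42.8 ± 2.38 TPM (log2 fold change 1.11), and Pcna, the most abundant, rose from 172 ± 14.4 TPM to 245 ± 5.66 TPM (log2 fold change 0.51). Of 58 cell cycle and spindle genes, 26 rose (44.8%), 18 fell (31%) and 14 did not pass the test (median log2 fold change 0.29). Ccna1, the meiotic A cyclin, rose from 0.443 ± 0.642 TPM to 63.0 ± 43.7 TPM (log2 fold change 5.12, adjusted p = 4.52e-04), Nek2 rose from 37.2 ± 5.05 TPM to 179.8 ± 43.6 TPM (log2 fold change 2.22) and the meiotic kinase gene Aurkc rose from 2.68 ± 0.806 TPM to 17.4 ± 6.95 TPM (log2 fold change 2.22). The D cyclins, Cdk4 and Cdk6 fell, Cdk4, the most abundant, from 231 ± 7.83 TPM to 132 ± 21.7 TPM (log2 fold change -0.82).

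Of 42 genes of glycolysis and energy isozymes, 21 rose (50%), 16 fell (38.1%) and 5 did not pass the test (median log2 fold change 0.24). Besides Ldhc, Pgam2, a phosphoglycerate mutase, rose from 1.66 ± 1.06 TPM to 484 ± 181 TPM (log2 fold change 7.49, adjusted p = 2.23e-06). Cox8c, a subunit of cytochrome c oxidase in the testis, had 6.45, 4.86 and 6.78 TPM in mice 1 to 3 of 8 dpp and 783, 863, 884, 556 and 448 TPM in mice 1 to 5 of 18 dpp. The mice of 18 dpp were all above those of 8 dpp, lowest in mice 4 and 5 (log2 fold change 6.62). Gapdh, Aldoa, Eno1, Pkm, Ldhb and Pgam1, of the glycolysis of most tissues, fell, and Hk1, Tpi1 and Ldha rose. Of 82 genes of oxidative phosphorylation, 32 rose (39%), 18 fell (22%) and 32 did not pass the test (median log2 fold change 0.15). Besides Cox8c, the largest changes were those of a pair of testis subunits, Cox7b2 from 18.7 ± 6.26 TPM to 312 ± 66.0 TPM (log2 fold change 4.01) and Cox6b2 from 39.3 ± 4.43 TPM to 549.9 ± 105 TPM (log2 fold change 3.75), while Cox6b1 fell. Atp5b, the most abundant, had 908 ± 12.0 TPM at 8 dpp and 870.1 ± 45.2 TPM at 18 dpp (log2 fold change -0.06, adjusted p = 0.417). Of 26 germ cell chaperones, 14 rose (53.8%), 4 fell (15.4%) and 8 did not pass the test (median log2 fold change 0.27). Clgn, which folds sperm surface proteins, rose from 10.7 ± 1.92 TPM to 446 ± 137 TPM (log2 fold change 5.20), Cct6b rose from 0.983 ± 0.0907 TPM to 115 ± 48.3 TPM (log2 fold change 5.75) and Dnajb13 rose from 0.553 ± 0.140 TPM to 40.3 ± 18.7 TPM (log2 fold change 4.59). Hsp90ab1, the most abundant, fell from 1975 ± 22.9 TPM to 1068 ± 123 TPM (log2 fold change -0.89).

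Ribosomal protein genes fell together, by less than 2-fold in most cases. Of the cytosolic ones, 2 of 82 genes rose (2.44%), 68 fell (82.9%) and 12 did not pass the test (median log2 fold change -0.52). They summed to 73678, 74208 and 75186 TPM in mice 1 to 3 of 8 dpp and 46982, 48959, 47667, 54363 and 56084 TPM in mice 1 to 5 of 18 dpp, with mice 4 and 5 the highest at 18 dpp. Rplp1, the most abundant, fell from 2392 ± 34.1 TPM to 1695 ± 201 TPM (log2 fold change -0.50), and the X-linked Rps4x fell from 739.5 ± 49.2 TPM to 323 ± 105 TPM (log2 fold change -1.25). The 2 that rose are autosomal copies of X-linked genes, Rpl10l from 52.0 ± 0.622 TPM to 281 ± 44.6 TPM (log2 fold change 2.40) and Rpl39l from 79.4 ± 3.13 TPM to 334 ± 68.8 TPM (log2 fold change 2.03). Mitochondrial ribosomal protein genes did not fall with them. Of these, 24 of 76 genes rose (31.6%), 5 fell (6.58%) and 47 did not pass the test (median log2 fold change 0.04), and quantile normalization gave a median of -0.04. Mrpl51 rose from 70.5 ± 5.72 TPM to 182 ± 25.5 TPM (log2 fold change 1.35), Mrpl39 rose from 30.0 ± 1.07 TPM to 76.0 ± 12.9 TPM (log2 fold change 1.30) and Mrpl24 rose from 72.6 ± 4.09 TPM to 163 ± 18.2 TPM (log2 fold change 1.15). Mrpl52, the most abundant, had 164 ± 10.4 TPM at 8 dpp and 162 ± 10.0 TPM at 18 dpp (log2 fold change -0.02, adjusted p = 0.855). Of the proteasome genes, 7 of 38 genes rose (18.4%), 10 fell (26.3%) and 21 did not pass the test (median log2 fold change -0.09), with a median of 0.06 under median-of-ratios factors. Psma8, the alpha subunit of the spermatocyte proteasome, had 11.8, 9.01 and 13 TPM in mice 1 to 3 of 8 dpp and 226, 244, 235, 197 and 190.3 TPM in mice 1 to 5 of 18 dpp. It was high in all mice of 18 dpp and low in all of 8 dpp (log2 fold change 4.17, adjusted p = 4.98e-07). Psmc3 rose from 238 ± 8.71 TPM to 479 ± 113 TPM (log2 fold change 0.97), Psmb10, a subunit of the immunoproteasome, fell from 23.0 ± 1.98 TPM to 11.9 ± 2.36 TPM (log2 fold change -0.91), and Psmd2, the most abundant, rose from 332 ± 11.3 TPM to 448 ± 16.2 TPM (log2 fold change 0.43).

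No gene of the cholesterol synthesis list rose, by limma or at an unadjusted p under 0.05. Of these, 0 of 23 genes rose, 14 fell (60.9%) and 9 did not pass the test (median log2 fold change -0.69). Insig1 and Srebf2, which regulate the pathway, fell, Insig1 from 99.6 ± 7.26 TPM to 32.1 ± 7.42 TPM (log2 fold change -1.63) and Srebf2 from 117 ± 3.11 TPM to 42.0 ± 6.95 TPM (log2 fold change -1.47). Hmgcs1, the most abundant enzyme, fell from 172 ± 10.2 TPM to 107 ± 14.3 TPM (log2 fold change -0.69). Of the collagens, laminins and integrins, 8 of 72 genes rose (11.1%), 39 fell (54.2%) and 25 did not pass the test (median log2 fold change -0.63, and -0.42 with the 18 members below the table added). Sparc, a matrix protein and the most abundant, fell from 2162 ± 107 TPM to 1336 ± 332 TPM (log2 fold change -0.73), Itgb8 fell from 17.4 ± 0.897 TPM to 3.02 ± 0.650 TPM (log2 fold change -2.21) and Col9a2 fell from 7.00 ± 1.40 TPM to 0.606 ± 0.284 TPM (log2 fold change -2.32), whereas Itgae rose from 0.800 ± 0.410 TPM to 9.08 ± 4.22 TPM (log2 fold change 2.39) and overlaps the germ cell kinase gene Haspin on the opposite strand. The name pattern of that list also took Itgb3bp and Itgb1bp1, which are not integrins and rose. Of the zinc finger genes named Zfp, 74 of 337 genes rose (22%), 127 fell (37.7%) and 136 did not pass the test (median log2 fold change -0.18). The median was -0.04 with median-of-ratios factors, -0.34 with quantile normalization and -0.12 with the 64 members below the table added. The Zfp genes with a 2-fold change, 34 higher (10.1%) and 32 lower (9.50%), compare with 17.5% and 10.1% of all genes. Zfp541, of spermatocytes, rose from 9.00 ± 2.15 TPM to 77.3 ± 24.1 TPM (log2 fold change 2.94), Zfp389 rose from 0.977 ± 0.713 TPM to 13.2 ± 5.25 TPM (log2 fold change 2.83) and Zfp956 rose from 10.8 ± 1.37 TPM to 84.9 ± 31.3 TPM (log2 fold change 2.78). Zfp36, the most abundant, had 243 ± 29.9 TPM at 8 dpp and 224 ± 52.1 TPM at 18 dpp (log2 fold change -0.14, adjusted p = 0.533).

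**Figure D3:**
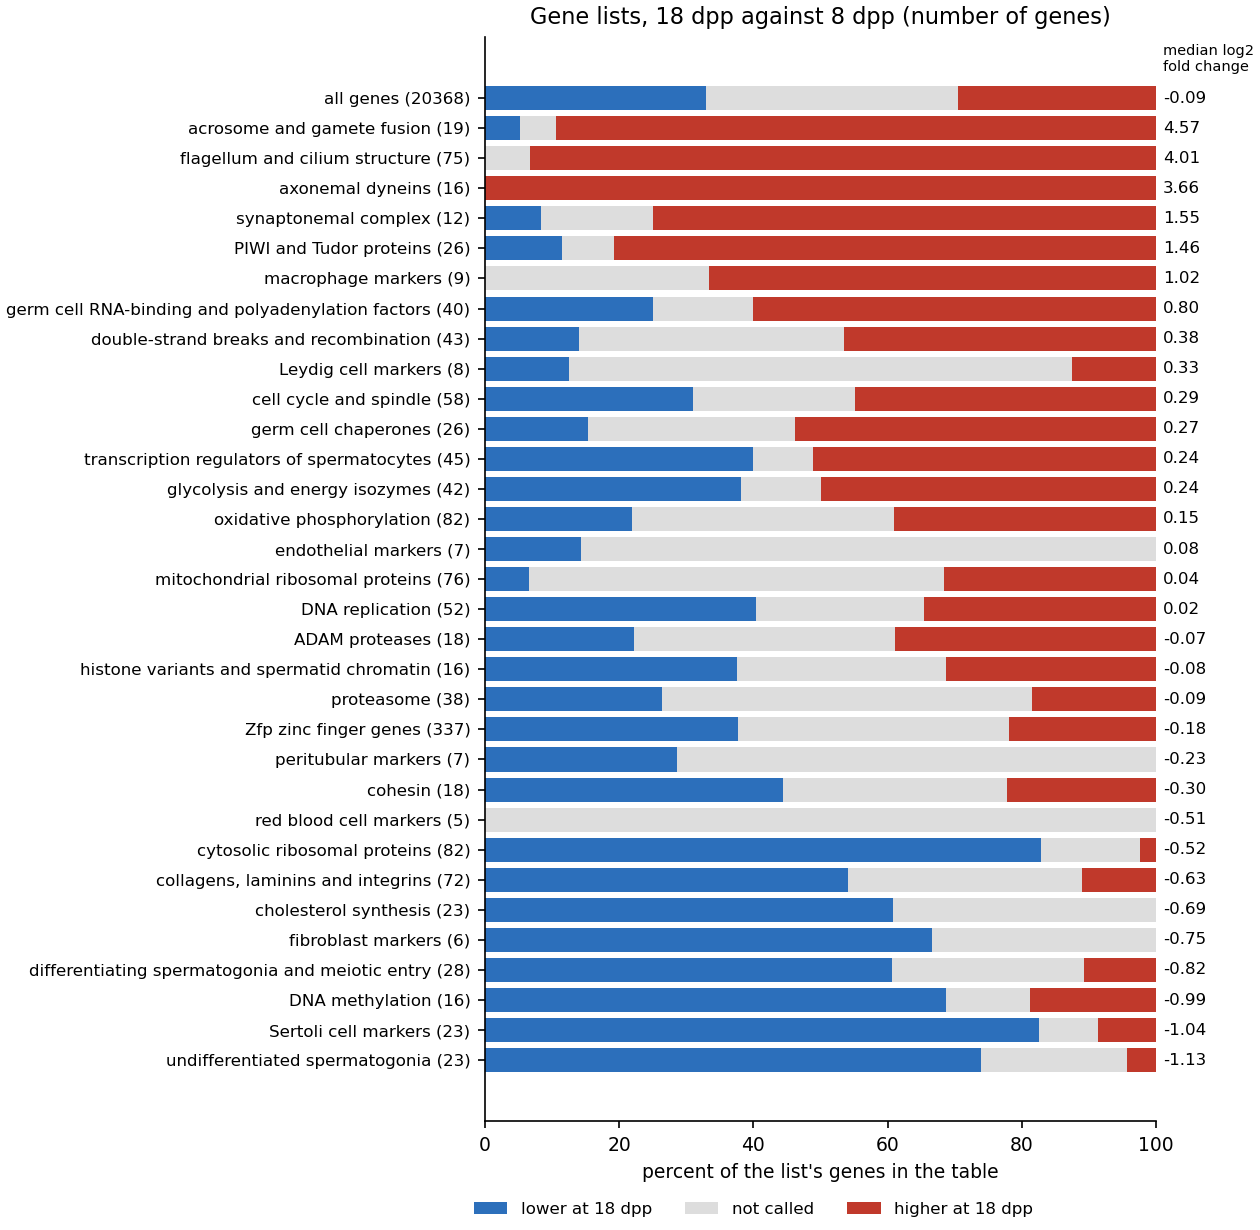
Share of each list's genes in the table that were lower, not called and higher at 18 dpp, with the number of genes in brackets and the median log2 fold change at the right, and all genes on top. The lists are ordered by the median of their members in the table. With the members below it added, the median went from 4.57 to 0.48 for the acrosome list and from -1.13 to -0.73 for undifferentiated spermatogonia. Medians change sign under another scaling for ADAM proteases, histone variants, DNA replication, mitochondrial ribosomal proteins, the proteasome and endothelial markers.

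Sertoli cell markers fell. Of these, 2 of 23 genes rose (8.70%), 19 fell (82.6%) and 2 did not pass the test (median log2 fold change -1.04). Amh, the hormone of immature Sertoli cells, had 323, 429 and 322 TPM in mice 1 to 3 of 8 dpp and 49.1, 53.3, 51.5, 69.1 and 74.2 TPM in mice 1 to 5 of 18 dpp. All mice of 18 dpp were below all of 8 dpp, with mice 4 and 5 the highest of their age (log2 fold change -2.58, adjusted p = 7.12e-06). Gata4, a transcription factor, fell from 241 ± 11.9 TPM to 66.0 ± 11.2 TPM (log2 fold change -1.86) and Kitl, the ligand of Kit, fell from 158 ± 6.06 TPM to 44.4 ± 6.97 TPM (log2 fold change -1.82). Clu, a secreted chaperone, fell from 5377 ± 345 TPM to 2899 ± 366 TPM (log2 fold change -0.90) and was still among the abundant genes. The members that rose are Gata1 and Rhox5. These markers were thus present at both ages, although the tubules were processed for germ cells, and their part in the falls of other lists was not tested. By the paper's count of stained cells, germ cells were the large majority in every sample.

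Markers of other somatic cells went in different directions. Of the Leydig cell markers, 1 of 8 genes rose, 1 fell and 6 did not pass the test (median log2 fold change 0.33), and the median was -0.04 without mice 4 and 5 of 18 dpp. Hsd3b6, a steroid dehydrogenase of adult Leydig cells, had 0.390, 1.02 and 0.150 TPM in mice 1 to 3 of 8 dpp and 26.9, 29.6, 31.0, 79.6 and 66.4 TPM in mice 1 to 5 of 18 dpp. It was high at 18 dpp and most so in mice 4 and 5 (log2 fold change 4.87, adjusted p = 2.29e-05). Hsd17b3, a dehydrogenase of testosterone synthesis, fell from 61.2 ± 2.00 TPM to 6.87 ± 2.53 TPM (log2 fold change -3.04, adjusted p = 1.84e-05). Insl3 had 58.3 ± 11.0 TPM at 8 dpp and 112 ± 56.4 TPM at 18 dpp (log2 fold change 0.80, adjusted p = 0.0998). Among macrophage markers, 6 of 9 genes rose, 0 fell and 3 did not pass the test (median log2 fold change 1.02), with 0 falls at an unadjusted p under 0.05 as well and a sum of 49.8, 50.4 and 68.9 TPM in mice 1 to 3 of 8 dpp and 103, 104, 91.5, 161 and 170.1 TPM in mice 1 to 5 of 18 dpp. Mrc1 rose from 5.27 ± 1.27 TPM to 16.8 ± 2.98 TPM (log2 fold change 1.50), C1qa rose from 7.58 ± 2.42 TPM to 20.3 ± 3.70 TPM (log2 fold change 1.33), C1qb rose from 7.66 ± 3.02 TPM to 18.8 ± 6.44 TPM and Lyz2, the most abundant, rose from 10.8 ± 2.15 TPM to 26.9 ± 12.1 TPM (log2 fold change 1.17), while Cd163 and Ptprc were below the table. Among fibroblast markers, 0 of 6 genes rose, 4 fell and 2 did not pass the test (median log2 fold change -0.75), with 0 rises at an unadjusted p under 0.05 as well and Col1a2 from 339 ± 16.0 TPM to 209.5 ± 76.9 TPM as the most abundant. Their sums were 957, 1071 and 1048 TPM in mice 1 to 3 of 8 dpp. In mice 1 to 5 of 18 dpp they were 586, 535, 440, 866 and 1019 TPM, so that the ages overlapped through mouse 5. In the fit of transcript sums used to add members below the table, 2 of the 6 fell. The peritubular genes gave a median log2 fold change of -0.23, with 2 of 7 falling and 0 rising, also at an unadjusted p under 0.05, Acta2 from 852 ± 40.7 TPM to 527 ± 198 TPM and Mylk from 64.0 ± 1.79 TPM to 41.4 ± 8.23 TPM. Of 7 endothelial genes, Kdr fell from 12.8 ± 1.14 TPM to 6.82 ± 2.38 TPM (log2 fold change -0.86) and the others were not called (median 0.08, -0.15 under quantile normalization and -0.28 without mice 4 and 5 of 18 dpp), Cdh5, the most abundant, among them. Of 5 red blood cell genes, 0 were called by limma and 0 had an unadjusted p under 0.05 (median -0.51, and -0.18 with the 2 members below the table added), Hbb-bs with an adjusted p = 0.225.

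X-linked genes fell as a chromosome. Of 652 X-linked genes, 359 fell (55.1%), 59 rose (9.05%) and 234 were not called (median log2 fold change -0.56). Of 14210 autosomal genes, 34.6% fell and 32.2% rose (median -0.06), and the share that fell lay between 30.2% on chromosome 7 and 40.5% on chromosome 18 among single autosomes. X-linked genes summed to 31689, 30435 and 30358 TPM in mice 1 to 3 of 8 dpp and 16744, 17208, 16485, 22136 and 22942 TPM in mice 1 to 5 of 18 dpp. Each mouse of 18 dpp was below each of 8 dpp, and mice 4 and 5 were the closest to them. The median level of X-linked genes less that of autosomal genes was -0.30, -0.33 and -0.30 on the log2 scale in mice 1 to 3 of 8 dpp and -1.19, -1.18, -1.14, -0.79 and -0.74 on the log2 scale in mice 1 to 5 of 18 dpp. Its mean difference between the ages was -0.70, and -0.86 without mice 4 and 5 (two-sided exact permutation tests, p = 0.0357 and p = 0.1, each the smallest its design allows, and 0.0595 and 0.125 adjusted over 5 values). Of 20 Y-linked genes, 2 rose and 7 fell.

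Of the X-linked genes, 123 fell and 36 rose at least 2-fold. Among those singled out after their values were seen, Bex2 fell from 306 ± 15.7 TPM to 52.9 ± 10.2 TPM (log2 fold change -2.53), Slc6a8, the creatine transporter, from 42.9 ± 2.95 TPM to 10.2 ± 3.29 TPM (log2 fold change -2.02) and Heph, a copper oxidase, from 17.5 ± 2.20 TPM to 3.65 ± 1.86 TPM (log2 fold change -2.09). Among the largest X-linked rises were those of Gm9112 from 4.51 ± 1.28 TPM to 107 ± 21.1 TPM (log2 fold change 4.30) and Tsx from 11.6 ± 0.977 TPM to 142 ± 34.4 TPM (log2 fold change 3.48). In adult spermatocytes these 2 genes had 9.43 and 18.7 TPM, less than at 18 dpp. Tsga8, a spermatid gene, rose from 0.143 ± 0.248 TPM to 8.56 ± 3.09 TPM (log2 fold change 3.02) and was at 36 TPM in the adult samples.

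Several X-linked genes of basic cell functions have an autosomal relative, in many cases a retrogene, that is used in spermatocytes. Of 27 such pairs, 26 had both genes in the table. An autosomal gene near 0 at 8 dpp is there only if it reached 3 TPM in an older juvenile mouse. With the 1 gene below the table added from transcript sums, 21 of the 54 genes of the pairs rose and 18 fell. The counts that follow are for the 26 pairs. The X-linked gene fell in 17 pairs, rose in 0 (by limma or at an unadjusted p under 0.05) and was not called in 9, and the autosomal gene rose in 21, fell in 2 and was not called in 3. In 15 pairs the X-linked gene fell and the autosomal one rose. Of all 652 X-linked genes, 55.1% fell and 9.05% rose, so falls were common on this chromosome beyond the pairs. Of all autosomal genes, 32.2% rose and 34.6% fell. Pgk1, a glycolytic kinase at chromosome X of GRCm38 from 106187100 to 106203699, had 115, 121 and 119 TPM in mice 1 to 3 of 8 dpp and 58.7, 58.6, 65.4, 91.2 and 86.0 TPM in mice 1 to 5 of 18 dpp. Its autosomal retrogene Pgk2, at chromosome 17 of GRCm38 from 40207015 to 40208640, had 0 TPM in each of the 3 mice of 8 dpp and 151, 154, 129, 41.3 and 33.6 TPM in mice 1 to 5 of 18 dpp. Pgk1 was lower and Pgk2 higher in each mouse of 18 dpp than in each of 8 dpp, both least so in mice 4 and 5, with adjusted p = 0.00404 for Pgk1 (log2 fold change -0.74) and adjusted p = 2.68e-05 for Pgk2, which was listed at 0 at 8 dpp.

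The centrin gene Cetn2 fell from 52.0 ± 3.27 TPM to 28.9 ± 5.90 TPM (log2 fold change -0.85) and its copy Cetn1 rose from 0.440 ± 0.416 TPM to 298 ± 129 TPM (log2 fold change 7.61, adjusted p = 2.61e-06). The RNA helicase gene Ddx3x fell from 227 ± 14.5 TPM to 117 ± 19.4 TPM (log2 fold change -0.97) and D1Pas1 rose from 9.53 ± 2.10 TPM to 116 ± 26.3 TPM (log2 fold change 3.46). Of the pyruvate dehydrogenase genes, Pdha1 fell from 33.7 ± 0.325 TPM to 18.7 ± 4.76 TPM (log2 fold change -0.85) and Pdha2 rose from 5.60 ± 0.651 TPM to 121 ± 19 TPM (log2 fold change 4.20, adjusted p = 6.74e-07). Fam50a fell from 38 ± 3.09 TPM to 25.1 ± 4.06 TPM (log2 fold change -0.59) and Fam50b rose from 0.253 ± 0.290 TPM to 99 ± 38.1 TPM (log2 fold change 6.24), and Gk fell from 3.40 ± 0.0436 TPM to 2.28 ± 0.521 TPM (log2 fold change -0.44) and Gykl1 rose from 0.113 ± 0.196 TPM to 89.5 ± 43.1 TPM (log2 fold change 6.20). Prps1, of nucleotide synthesis, had 51.7 ± 1.87 TPM at 8 dpp and 46.1 ± 7.60 TPM at 18 dpp (log2 fold change -0.18, adjusted p = 0.248), while Prps1l1 rose from 0.0933 ± 0.162 TPM to 129 ± 53.0 TPM (log2 fold change 6.78). In the pair of Zrsr2 and Zrsr1 both fell, Zrsr2 from 83.4 ± 14.6 TPM to 41.1 ± 6.14 TPM and Zrsr1 from 12.1 ± 0.648 TPM to 9.30 ± 1.02 TPM. The pair of Rragb and Rraga differed from the rest, since the autosomal Rraga fell from 71.7 ± 2.38 TPM to 46.9 ± 9.40 TPM (log2 fold change -0.62) and Rragb had 25.6 ± 3.62 TPM at 8 dpp and 32.3 ± 4.99 TPM at 18 dpp (log2 fold change 0.32, adjusted p = 0.0776). Reads of such copies may have been shared. Cstf2t, the autosomal form of a cleavage factor, rose by a smaller step from 31.1 ± 1.81 TPM to 45.0 ± 3.68 TPM, with Cstf2 falling from 59.8 ± 2.64 TPM to 33.0 ± 6.24 TPM.

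**Figure D4:**
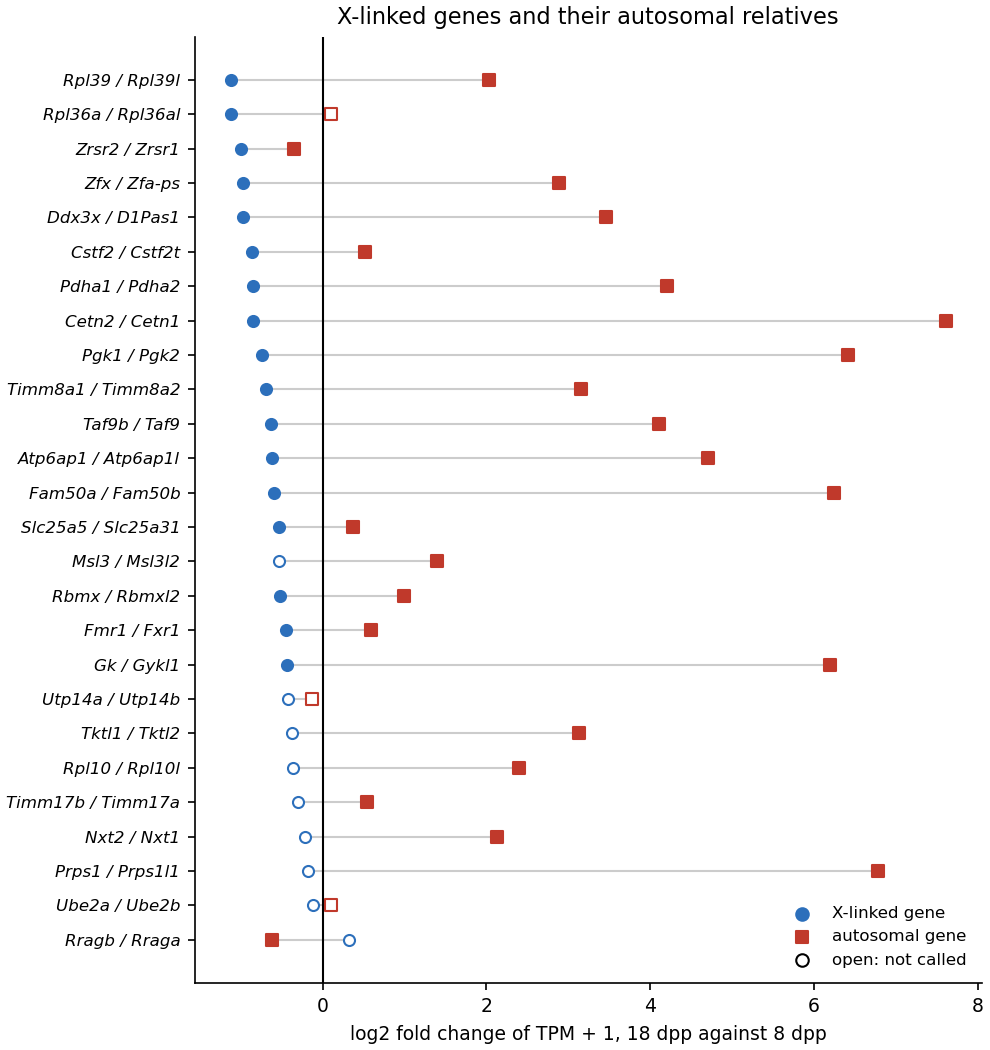
Log2 fold change of TPM + 1 from 8 to 18 dpp for 26 X-linked genes (circles) and their autosomal relatives (squares), joined by a line, with open symbols for genes that were not called. All 17 called circles lie left of 0, and of the called squares 21 lie right of it, up to 7.61 for Cetn1, and 2 left of it.

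Of the NONCODE genes, 1283 rose (24.4%), 1394 fell (26.5%) and 2590 were not called (median log2 fold change -0.13), against 29.5% and 32.9% of all genes. Those with a 2-fold change, 929 higher (17.6%) and 510 lower (9.68%), were near the shares of all genes (17.5% and 10.1%). Their share of a library's transcripts was 8.58%, 9.77% and 9.79% in mice 1 to 3 of 8 dpp and 8.64%, 8.34%, 9.05%, 9.94% and 9.65% in mice 1 to 5 of 18 dpp (two-sided exact permutation test, p = 0.643). The ages overlapped, and median-of-ratios factors turned the difference from -2554 to 6867 TPM. NONMMUG003663 had 0 TPM in each of the 3 mice of 8 dpp and 310.0, 336, 319.7, 145 and 144 TPM in mice 1 to 5 of 18 dpp. It was listed at 0 in every mouse of 8 dpp and was lowest at 18 dpp in mice 4 and 5. NONMMUG034231 rose from 0.153 ± 0.266 TPM to 159 ± 60.2 TPM (log2 fold change 7.05), NONMMUG015059 fell from 71.9 ± 5.92 TPM to 3.89 ± 1.12 TPM (log2 fold change -3.92) and NONMMUG033739 fell from 16.8 ± 4.65 TPM to 1.33 ± 2.09 TPM (log2 fold change -3.23). Of 269 lincRNA genes in the table, 129 rose (48.0%) and 58 fell (21.6%, median 0.74). Of 308 antisense genes there, 141 rose (45.8%) and 36 fell (11.7%, median 0.63), with the doubt about strand. A gene near 0 at 8 dpp is in the table only if it reached 3 TPM in an older juvenile mouse. Members below the table were not added for the classes of this paragraph, so these shares hold only for the genes in it. Of 13660 protein-coding genes, 4181 rose and 5089 fell (median -0.11).

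Mitochondrial RNA differed more among the mice of 18 dpp than between the means of the ages. The 14 mitochondrial genes took, of a library's transcripts, 8.41%, 8.27% and 7.94% in mice 1 to 3 of 8 dpp and 6.21%, 6.43%, 7.75%, 9.29% and 8.88% in mice 1 to 5 of 18 dpp (two-sided exact permutation test, p = 0.571). Mice 1 to 3 of 18 dpp were below the range of 8 dpp and mice 4 and 5 above it. The difference was -4976 TPM, 2949 TPM with median-of-ratios factors and -14118 TPM without mice 4 and 5. They include the 3 most abundant genes of either age, mt-Co1, mt-Co2 and mt-Co3. Of these mt-Co1 had 13205 ± 326 TPM at 8 dpp and 14161 ± 2887 TPM at 18 dpp (log2 fold change 0.08, adjusted p = 0.732). Between 14905 and 15009 genes had at least 3 TPM in the mice of 8 dpp and between 15672 and 16043 in those of 18 dpp. Genes of at least 100 TPM numbered 1767 to 1815 and 1889 to 2084.

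The changes built up late. For each gene with a 2-fold change, the difference from the 8 dpp mean was expressed as a percent of its change from 8 to 18 dpp, on the log2 scale. The median gene among the 3565 that rose stood at 0.0974%, 11.5%, 20.8% and 56% in the mice of 10, 12, 14 and 16 dpp (n = 5 mice for each of these ages). The 2064 that fell went earlier, to 5.96%, 33.4%, 38.9% and 62.3%. Of the genes that rose, 1789 (50.2%) first passed 50% of their change at 16 dpp and 1300 (36.5%) only at 18 dpp. Among the 545 that rose at least 16-fold, 467 (85.7%) first passed it at 16 dpp. By mouse, the median gene of those that rose stood at 114%, 111%, 109%, 84.9% and 81.5% of its change in mice 1 to 5 of 18 dpp, and at 71.8%, 52.7%, 47.7%, 49.5% and 64.5% in the 5 mice of 16 dpp. The lowest mouse of 18 dpp was above the highest of 16 dpp. Ldhc, for example, had means of 2.11, 23.4, 74.1 and 759.8 TPM in the mice of 10, 12, 14 and 16 dpp. Since the percent is set by the values at 8 and 18 dpp, it is a description.

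**Figure D5:**
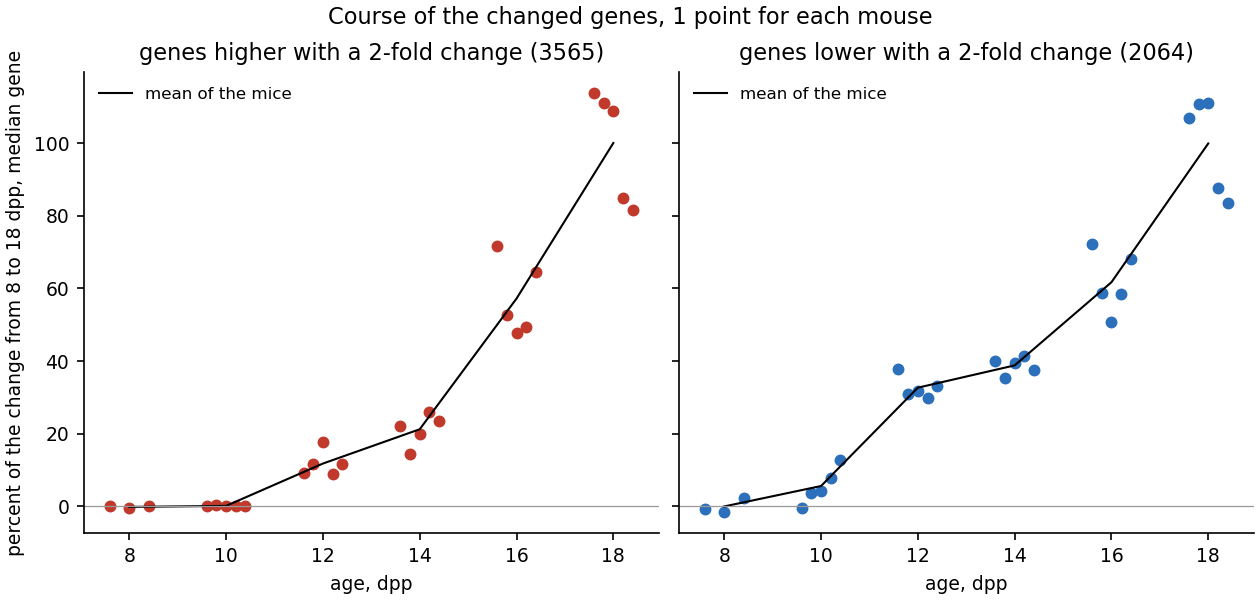
Median over genes of the percent of the change from 8 to 18 dpp, for genes higher (left) and lower (right) at 18 dpp with a 2-fold change, with 1 point for each of 28 mice by age in dpp and a line through the means of the ages. Genes that rose stayed near 0 at 10 dpp and the median gene that fell was at 33.4% of its change at 12 dpp, and mice 4 and 5 of 18 dpp lie under the other 3 in both panels.

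Adult pachytene and diplotene spermatocytes carried the same changes further. Of the 3565 genes that rose at least 2-fold, 3212 (90.1%) had a higher mean in the 4 adult samples than at 18 dpp, and their median level went from 1.24 TPM at 8 dpp over 18.4 TPM at 18 dpp to 39.9 TPM. Of the 2064 that fell, 1968 (95.3%) were lower in the adult samples than at 18 dpp, with medians of 21.8, 7.52 and 0.744 TPM. Among all genes, 31.8% were above the 18 dpp level and 67.8% below it. All 545 genes that rose at least 16-fold had 3 TPM or more in the adult samples, 537 of them more than at 18 dpp. Of the 189 that fell at least 4-fold, 17 had 3 TPM or more there. Clu, at 2899 TPM at 18 dpp, was at 313 ± 47.9 TPM, and Acta2 at 3.32 ± 1.12 TPM (SD, n = 4). The adult cells differ from the juvenile ones in age, enrichment and library set, which cannot be told apart here, and these values were not tested.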

How the data were processed

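PolyA RNA of germ cells was sequenced from single mice of 8 to 18 dpp and from 4 adult samples. The authors aligned reads with Bowtie 1.0.0 and estimated TPM with RSEM 1.2.8 on a reference of Ensembl, NONCODE and piRNA precursor transcripts. In the deposited juvenile gene table, values are the exponential of log2(TPM + 1), less 1. They were converted back, and 20288 of 20368 genes then lay within 0.2 TPM of the summed deposited transcript TPM in every mouse.

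Levels as log2(TPM + 1) of the 3 mice of 8 dpp and the 5 of 18 dpp were compared with limma 3.58.1 (mean-variance trend, R 4.3.3), with p-values adjusted over all 20368 genes by Benjamini-Hochberg and a gene called under 0.05. Single values for each mouse were compared by two-sided exact permutation tests, adjusted over 5. Read counts and strand are not given, so no depth or counting error can be stated. Samples were grouped by the ages in their labels, and the mice of the ages between 8 and 18 dpp and the adult samples were described and not tested.

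Named genes are the 12 largest called rises and 12 largest called falls among genes with a symbol, no overlap between the ages and a mean of at least 10 TPM at the higher age, the 3 called genes of largest change and the most abundant gene of each of 35 lists, the stained proteins, the pairs of X-linked and autosomal genes, 2 rises and 2 falls each of NONCODE genes and piRNA precursors, and the 3 most abundant genes of each age. One gene that this rule picks is not reported here. The members and lists were chosen with earlier results of these data known. Gene positions are from GENCODE M21 (GRCm38) and promoters from RefSeq.

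The alternatives were a pseudocount of 0.1 or 3 TPM in place of 1, a stricter or no filter on low values, median-of-ratios factors, quantile normalization, other variance models, all 6 ages in 1 model, gene values summed from transcripts, an adjusted p under 0.01, mice 1 to 3 alone, a block for the mouse number, and each mouse left out. Adding to each list and to the piRNA precursors the members below the gene table was chosen after seeing the data. The procedure was tested on simulated data. Python 3.11.15, pandas 2.3.3, numpy 2.4.6, scipy 1.17.1 and matplotlib 3.10.9 were used.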

Additional observations from a re-analysis of the deposited data

Results flagged for a closer look

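Dixon's ratio, the gap of the highest or lowest mouse to its nearest neighbour over the range of the group, was taken in the 5 mice of 18 dpp for 201 values (gene levels as log2(TPM + 1)), and 5 of them (2.49%) passed the 95% limit for 5 mice. Chance alone gives about 1 in 20 groups. The 3 mice of 8 dpp were too few for it.

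Aurkc was far lower in mouse 4 of 18 dpp than in the other 4 mice (ratio 0.782), with 22.2, 20.9, 21.8, 5.63 and 16.6 TPM in mice 1 to 5. Hormad1 was lowest in mouse 1 (ratio 0.741), with 252.6 TPM against 293 to 309 TPM in the others. Mouse 5 was the highest for Slc25a31 (ratio 0.747), with 178 TPM against 149 to 156 TPM. It was the highest too for Tnfrsf12a (ratio 0.756), with 28.8 TPM against 14.5 to 17.2 TPM, and for Shisa6 (ratio 0.728), with 4.15 TPM against 1.34 to 1.90 TPM.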

How the results depend on the processing

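Of the 12726 called genes, 0 were called in the opposite direction under any of 22 alternatives. Between 77.2% (adjusted p under 0.01) and 99.96% (values summed from transcripts) of them kept their call, and of the 5629 with a 2-fold change, between 90.2% (stricter filter, which drops genes) and 100% were called in the same direction. Genes lower with a 2-fold change numbered 1302 with a pseudocount of 3 TPM and 3241 with quantile normalization, against 2064. Quantile normalization also gave Atp5b a log2 fold change of 0.26, against -0.06 and no call, and median-of-ratios factors gave the proteasome list a median of 0.06, against -0.09. Other small medians moved as well with median-of-ratios factors and quantile normalization, in that order. For glycolysis and energy isozymes they were 0.39 and 0.12, against 0.24. For oxidative phosphorylation they were 0.30 and 0.07, against 0.15, and for peritubular markers -0.09 and -0.34, against -0.23. Adding the members below the gene table, chosen after seeing the data, took the median of the acrosome list from 4.57 to 0.48 and that of the piRNA precursors from 2.21 to 0.17. The cause was not tested.

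With 1 mouse left out at a time, genes higher at 18 dpp ranged from 5338 to 6097, genes lower from 5519 to 7068, those higher with a 2-fold change from 3402 to 3701 and those lower from 1895 to 2338. The difference between the ages ranged from -12684 to -11070 TPM for the X-linked sum, from -0.77 to -0.66 on the log2 scale for the X-linked less the autosomal median, from 601 to 683 TPM for piRNA precursors, from -6525 to -517 TPM for NONCODE genes and from -8918 to -1232 TPM for mitochondrial genes. Leaving out mice 4 and 5 of 18 dpp for these sums was chosen after seeing the data, and 3 mice against 3 cannot go below p = 0.1 in the exact test.

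A block for the mouse number, with mice 1 to 3 of each age, gave 6221 genes higher and 7575 lower, 3886 and 2795 with a 2-fold change. Deviations of mice of the same number from their age's mean correlated across 20368 genes with r = -0.00, -0.02 and 0.02. Genes are not independent replicates. Mice of different number gave values from -0.02 to 0.02, so these values show no pairing by number. Whether mice of the same number shared a litter, day or pool was not tested. Depth is unknown, and a gene listed at 0 may have been missed.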
